A study of Mus musculus with 2 samples.

Results

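This report describes 10 mouse genes of LIF and IL-11 to STAT3 signalling in a map of N6-methyladenosine (m6A), an internal chemical mark of mRNA, in the uterus. The genes were the ligands Lif and Il11, the receptor chains Lifr, Osmr, Il11ra1 and Il6st, the kinases Jak1 and Jak2, the transcription factor Stat3 and its feedback inhibitor Socs3. A peak was assigned to a gene when its summit lay inside the gene span, exons and introns together, of the RefSeq annotation of mm10. In all, 19 of the 38366 deposited peaks met this rule, and they fell in 7 of the 10 genes.

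The map came from methylated RNA immunoprecipitation sequencing (MeRIP-seq), in which RNA bound by an antibody against m6A is sequenced beside RNA that was not selected. The immunoprecipitated (IP) group held 1 library of wild-type C57BL/6 mice, whose label gives whole uteri of gestation day 4 and gestation day 8 mixed in equal parts. The input group held 1 library of whole uterus of the same strain, made without antibody, with no day or pooling in its label. Every peak name starts with D8posIP-Neginput, where day 8 appears but day 4 does not, so the mixture of days in the IP library is known from its label only. How many animals were pooled and how old they were is not given in the sources used here. With 1 library per group no difference between the groups was tested, and the 2 gestation days cannot be told apart.

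LIF and IL-11 belong to the interleukin-6 cytokine family, whose members share the signal-transducing receptor chain encoded by Il6st. Ligand binding brings this chain together with a partner chain, the attached Janus kinases (JAK) become active, and they phosphorylate STAT3, which enters the nucleus and switches on genes that include its own inhibitor, Socs3. In the mouse, LIF released by the uterine glands is needed for embryo attachment, and IL-11 signalling is needed for the decidua, the tissue that the stroma forms around the embryo.

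Each value below is the authors' fold enrichment, the ratio of IP fragments to the local background where the peak is highest, its summit. The IP fragment number and the background at each summit were recovered from the deposited fold and p-value. The 1 added to both terms of the ratio lowers the fold, most at peaks with few fragments. Such peaks enter the list only where the background is low. Whether their folds are too low or too high was not tested. Parentheses hold exact 95% Poisson intervals for the IP fragments at a fixed background, which cover counting error only.

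Of the 10 genes, 7 carried at least 1 peak: the ligand gene Il11, the receptor genes Lifr, Osmr and Il6st, both kinase genes and Socs3. Lif, Il11ra1 and Stat3 carried none. Among all 21787 protein-coding genes the share with a peak was 55.7%. The 19 peaks had a median of 5.42-fold and ranged from 2.66-fold in Osmr to 8.58-fold in Socs3. Over the whole list the median was 6.16-fold, with quartiles of 4.62 and 8.32. Of the 19 peaks, 4 lay above that median, 7 had an interval wholly below it and 0 had an interval wholly above it. How many of all peaks have such intervals was not computed. The 7 and the 0 can therefore not be set against the whole list. No peak of these genes reached 10-fold, a level met by 14.8% of all peaks. All 7 genes with a peak kept at least 1 of 4-fold or more, a level that 51.5% of all protein-coding genes reached. The highest fold per gene had a median of 6.71 over the 7 genes, beside 8.04 over the 12134 protein-coding genes with a peak. Among the 7 only Socs3 stood above 8.04, and its interval (5.92 to 12.1) held that value.

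**Figure D1:**
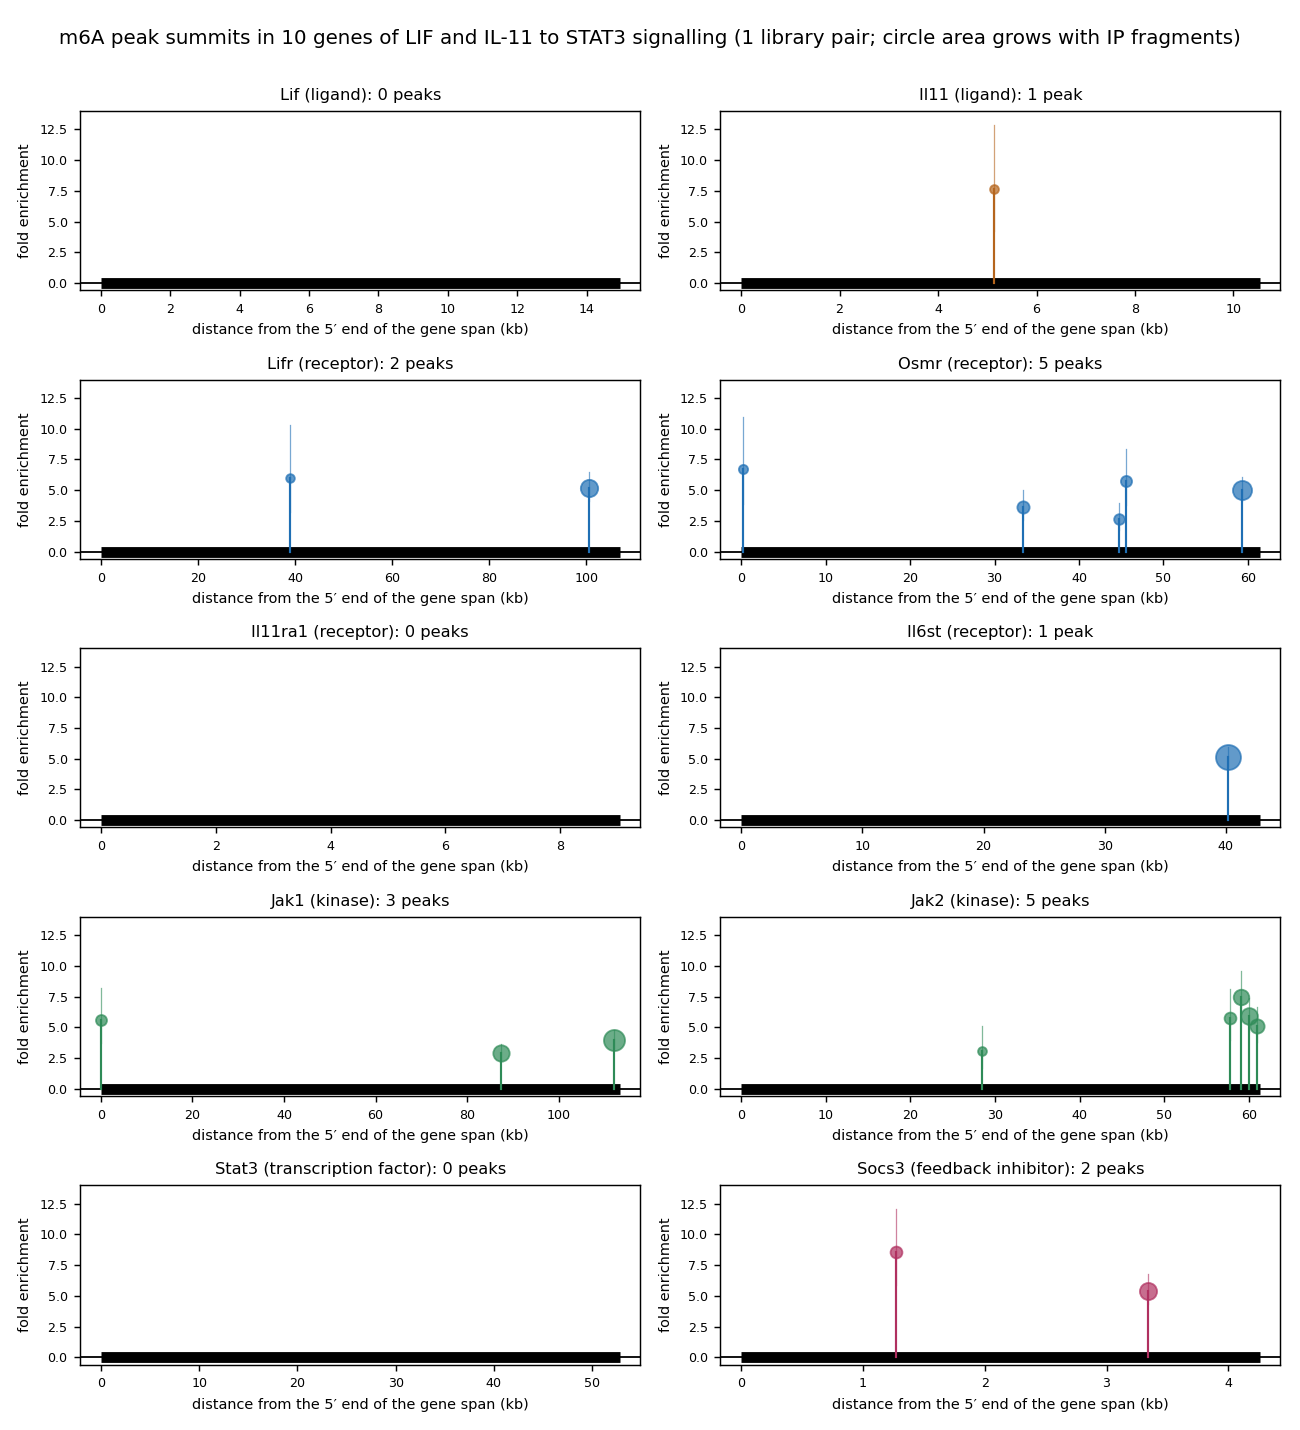
Position and fold enrichment of the m6A peak summits in each of the 10 genes. The horizontal axis is the distance from the 5′ end of the gene span in kb, the vertical axis is fold enrichment (IP over background), thin lines are exact 95% Poisson intervals and circle area grows with the number of IP fragments. Lif, Il11ra1 and Stat3 are empty, and 4 of the 5 Jak2 summits crowd at its 3′ end.

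The ligands differed in that Il11 carried a peak and Lif did not. Il11 (NCBI Gene 16156, mm10 chromosome 7, 4772373 to 4782907, minus strand) encodes interleukin-11. Its peak, at 4777589 to 4777832, reached 7.63-fold (4.23 to 12.9) on 12 IP fragments and a background of 0.704. The summit lay in the middle of the gene span, 380 bases after the inner of the 2 transcript starts that RefSeq lists. This was among the thinly covered peaks: 15.8% of all peaks had fewer IP fragments and 14.8% had a lower background. Lif (NCBI Gene 16878, chromosome 11, 4257568 to 4272514, plus strand) encodes leukaemia inhibitory factor. No summit fell inside its 14.9 kb span, and the nearest peak lay 42269 bases before its 5′ end, inside the neighbouring gene Tbc1d10a. In a list of peaks without expression values, a transcript that is absent, too rare or not methylated cannot be told apart. In whole tissue, fewer cells of a type and less RNA per cell cannot be told apart either.

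Few of the other ligand genes of the family carried a peak. Of 9 further genes for interleukin-6 family ligands and their soluble partners, 2 carried a peak (22.2%, beside 55.7% of all protein-coding genes). Ebi3, which encodes a subunit of IL-27 and IL-35, reached 7.53-fold (3.96 to 13.3) from 10 IP fragments, and Clcf1, a ligand of the ciliary neurotrophic factor receptor, reached 3.96-fold (2.62 to 5.78) from 25. The Ebi3 summit lay in 2 gene spans and the Clcf1 summit in 3, so neither peak belongs to its gene alone. The 7 genes with no peak included Il6, Osm, Cntf, Ctf1, Ctf2 and Il27, which are named with their values already known.

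Among the receptor chains, Il6st, Lifr and Osmr carried peaks and Il11ra1 did not. Il6st (NCBI Gene 16195, chromosome 13, 112464070 to 112506860, plus strand) encodes the chain that all these cytokines share. It held a single peak, but a long and deeply covered one, which spanned 3401 bases from 112503553 to 112506953 and ran 93 bases past the annotated 3′ end. Its summit, 2633 bases before the 3′ end, had 179 IP fragments over a background of 33.97, or 5.15-fold (4.43 to 5.96). Of all peaks, 99.6% had fewer IP fragments, 99.7% were narrower and 33.5% had a lower fold. The Il6st peak thus combined high coverage in the IP with a high local background, which 98.9% of peaks lay below.

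Lifr (NCBI Gene 16880, chromosome 15, 7090610 to 7197489, plus strand), which encodes the LIF-binding partner chain, held 2 peaks. The first, at 7129599 to 7129798, reached 5.96-fold (3.22 to 10.3) on 11 IP fragments and a background of 1.01. Its summit lay 90 bases after a listed transcript start that is well inside the span. From the 5′ end of the span, the summit lay 39052 bases away, at 36.5% of the span. The other, at 7190385 to 7191621, reached 5.20-fold (4.14 to 6.46) on 80 IP fragments and a background of 14.6, with its summit 6217 bases before the 3′ end of the span. The intervals of the 2 peaks overlapped, although the second rested on far more fragments.

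Osmr (NCBI Gene 18414, chromosome 15, 6813568 to 6874968, minus strand), which encodes the oncostatin M receptor chain, held 5 peaks spread from its 5′ end to its 3′ end. The first, at 6874398 to 6875053, covered the 5′ end of the span and reached 6.71-fold (3.87 to 10.96) on 14 IP fragments and a background of 1.24. The next, in 5′ to 3′ order, at 6841482 to 6841766, had 34 IP fragments and reached 3.63-fold (2.54 to 5.03). The third, at 6830218 to 6830434, had 23 IP fragments and reached 2.66-fold (1.73 to 3.93). The fourth lay close by, at 6829390 to 6829811, and reached 5.74-fold (3.82 to 8.31) with 26 IP fragments on a lower background, 3.71 beside 8.03 at the third. The last, at 6814307 to 6816057, had 100 IP fragments over a background of 19.1, or 5.01-fold (4.09 to 6.09), with its summit 2116 bases before the 3′ end. Of the 10 pairs among these peaks, only the third and the last had intervals that did not overlap. The deposited fold in Osmr was highest at the 5′ end, within overlapping intervals, and the number of IP fragments was highest at the 3′ end.

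Il11ra1 (NCBI Gene 16157, chromosome 4, 41760443 to 41769473, plus strand), which encodes the IL-11-binding chain, held no summit. A peak at 41769231 to 41770089 overlapped the last 243 bases of its span, but the summit lay 187 bases beyond the end, inside Ccl27a, a chemokine gene listed on the opposite strand. That peak reached 8.34-fold (6.44 to 10.6) on 63 IP fragments and a background of 6.67. The list carries no strand, so it does not say which of the 2 genes the fragments came from. The paralogue Il11ra2, also on chromosome 4 (42655275 to 42665763), had a matching arrangement, with 1 peak at 42655352 to 42656287 whose summit lay in both Il11ra2 and Ccl27b. It reached 9.13-fold (7.13 to 11.5) on 69 IP fragments and a background of 6.67. The intervals at the 2 loci overlapped. Il11ra1 and Il11ra2 are close copies in the mouse, so reads may have been shared between them by the authors' alignment, and how such reads were handled is not given in the sources used here.

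Among 6 further receptor genes of the family, 5 carried a peak (83.3%, beside 55.7% of all protein-coding genes). The 5 had a median highest fold of 9.13, which is the value of Il11ra2, at the summit shared with Ccl27b. When only summits in a single gene counted, 3 of the 6 carried a peak. Il31ra, which encodes the chain that pairs with Osmr as the IL-31 receptor, reached 21.4-fold (16.4 to 27.4) on 60 IP fragments and a background of 1.85. Il6ra, the interleukin-6-binding chain, reached 10.1-fold (8.13 to 12.4), and Crlf2, a chain of the thymic stromal lymphopoietin receptor, had no peak. Crlf2 is a related receptor and does not pair with the Il6st chain. The Il31ra interval lay above those of all 8 peaks in Il6st, Lifr and Osmr. Of 19 genes for other receptors that signal through JAKs, 16 carried a peak (84.2%), led by the interleukin-10 receptor gene Il10ra at 19.7-fold (14.4 to 26.4), Il15ra at 14.3-fold (9.87 to 20.1) and the growth hormone receptor gene Ghr at 13.5-fold (10.6 to 17.0). The Ghr summit lay in 2 gene spans. Genes with no peak included Il2rg and Epor, receptor chains of lymphoid and red blood cells.

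**Figure D2:**
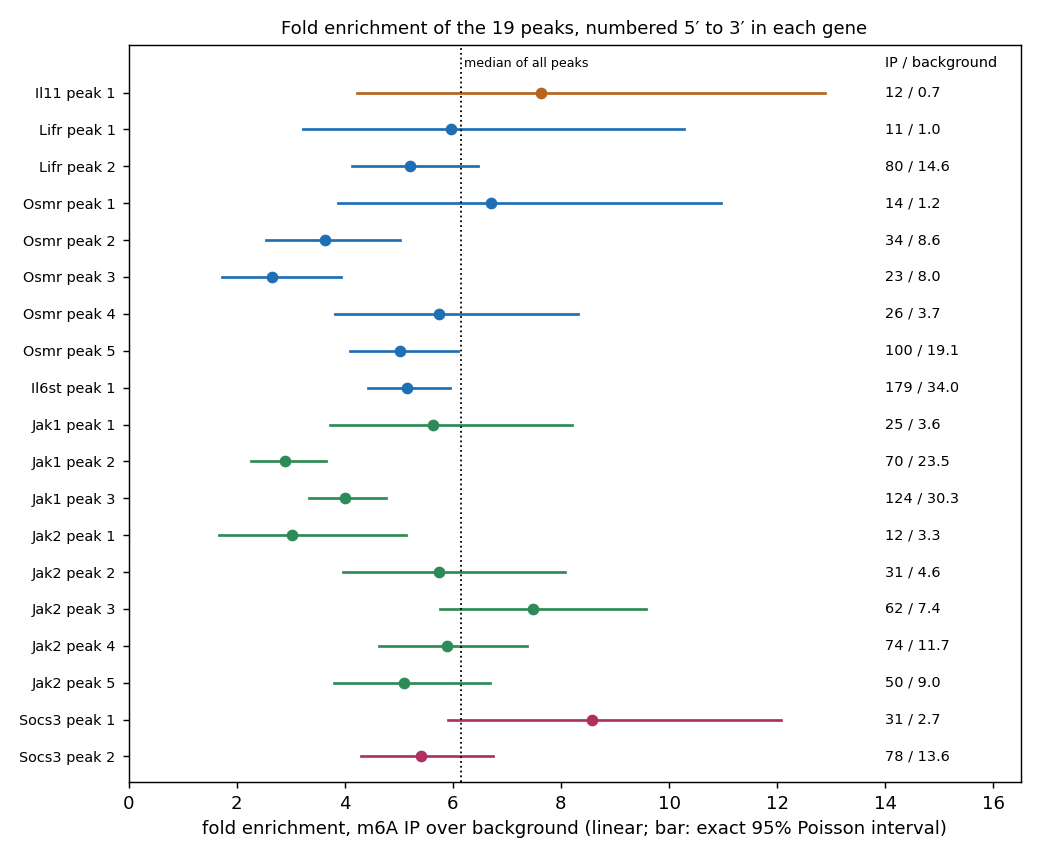
Fold enrichment of each of the 19 peaks, numbered from 5′ to 3′ within a gene and coloured by role (ligand, receptor, kinase, feedback inhibitor). Points are the deposited fold, bars are exact 95% Poisson intervals (IP counting error), the dotted line is the median of all peaks at 6.16-fold, and the right column gives IP fragments and local background. The points run from 2.66-fold to 8.58-fold.

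The kinase genes Jak1 and Jak2 carried 8 of the 19 peaks. Jak1 (NCBI Gene 16451, chromosome 4, 101151974 to 101265282, minus strand), the kinase held by the shared receptor chain, had 3 peaks. The first, at 101265050 to 101265290, lay over the transcript start and reached 5.63-fold (3.72 to 8.21) on 25 IP fragments and a background of 3.62. The second, at 101177707 to 101177910, reached 2.90-fold (2.27 to 3.66) on 70 IP fragments and a background of 23.5, and its interval lay below that of the first. The third, at 101152528 to 101153391, had 124 IP fragments over a background of 30.3, with its summit 1281 bases before the 3′ end, and stood at 3.9986-fold (3.33 to 4.76), just under 4-fold.

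Jak2 (NCBI Gene 16452, chromosome 19, 29251803 to 29313095, plus strand), a kinase that also serves many other cytokine receptors, had 5 peaks, 4 of them within its last 3555 bases. In 5′ to 3′ order, these 4 reached 5.75-fold (3.96 to 8.08), 7.49-fold (5.77 to 9.57), 5.89-fold (4.64 to 7.37) and 5.09-fold (3.80 to 6.68). They rested on 31, 62, 74 and 50 IP fragments. The remaining peak, at 29280061 to 29280456, had its summit 28510 bases from the 5′ end and reached only 3.03-fold (1.68 to 5.12) from 12 IP fragments. Among the 4 at the 3′ end all intervals overlapped, so any order among them rests on the deposited fold only. The interval of the 7.49-fold peak lay above that of the inner one. By deposited fold the highest peak was at 29310759 to 29310994, with its summit 2193 bases before the 3′ end.

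Stat3 (NCBI Gene 20848, chromosome 11, 100886806 to 100939594, minus strand), which encodes the transcription factor on which the pathway converges, had no peak in its 52.8 kb span. The nearest peak lay 19489 bases before its 5′ end, inside Cavin1, and none lay in the neighbouring gene Stat5a. Of 8 genes for other JAK kinases and STAT factors, 6 carried a peak (75.0%, beside 55.7% of all protein-coding genes). The 6 had a median highest fold of 7.83. They were led by Stat2 at 10.2-fold (7.76 to 13.1) and Jak3 at 8.63-fold (5.91 to 12.2), which act in interferon and lymphoid cytokine signalling. The Jak3 summit lay in 2 gene spans. Stat4 had no peak, as was the case for Stat5a.

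Socs3 (NCBI Gene 12702, chromosome 11, 117966079 to 117970336, minus strand), whose protein binds the shared receptor chain and blocks the kinases, held the highest fold of the 10 genes in the shortest span, 4.26 kb. The first of its 2 peaks, at 117968923 to 117969183, reached 8.58-fold (5.92 to 12.1) on 31 IP fragments and a background of 2.73, with its summit 305 bases after the listed transcript start. The second, at 117966680 to 117968417, spanned 1738 bases and reached 5.42-fold (4.30 to 6.74) on 78 IP fragments and a background of 13.6. Its summit lay 917 bases before the 3′ end. The intervals of the 2 peaks overlapped. Among the 21 pairs of highest peaks of the 7 genes with a peak, 0 had intervals that did not overlap. Socs3 was thus highest by the deposited fold only. Among peak-carrying protein-coding genes, 55.7% had a lower highest fold than Socs3.

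Other inhibitors of the pathway nearly all carried peaks. Of 18 further genes for SOCS and PIAS proteins, phosphatases and adaptors, 17 had a peak (94.4%, beside 55.7% of all protein-coding genes). The 17 had a median highest fold of 9.40. The highest were Socs7 at 17.3-fold (12.7 to 23.1), Socs1, another direct inhibitor of JAKs, at 13.7-fold (8.51 to 21.0), and Pias4, a SUMO ligase that binds STAT proteins, at 12.6-fold (8.998 to 17.1). Background at the Socs1 summit was 0.462, the floor of the list, at which 7.43% of all peaks stood. The Ebi3 peak stood at the same floor. Ptprt, a receptor-type phosphatase, had no peak. The Socs3 interval overlapped those of Socs1 and Pias4 and lay below that of Socs7.

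Most known STAT3 target genes carried peaks as well. Of 18 such genes 17 carried a peak (94.4%, beside 55.7% of all protein-coding genes), with a median highest fold of 7.61. The highest were Cebpb, a transcription factor of decidual cells, at 16.8-fold (14.3 to 19.7), the hypoxia factor gene Hif1a at 12.7-fold (9.12 to 17.2) and Birc5, an inhibitor of apoptosis, at 12.4-fold (9.18 to 16.3). Irf1, an interferon-induced factor gene, had none. These genes are targets of many other pathways, and STAT3 binding was not measured here. The 10 genes described above had 7 with a peak and a median highest fold of 6.71, beside 63 of 78 genes with a peak (80.8%) and a median of 8.06 over the 6 lists together. Median gene spans were 6.03 kb for the other ligands, 6.37 kb for the STAT3 targets, 31.9 kb for the inhibitors and 47.8 kb for the 10 genes. The part of span in these counts was not tested. Whether the lists differ from each other or from all genes was not tested.

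**Figure D3:**
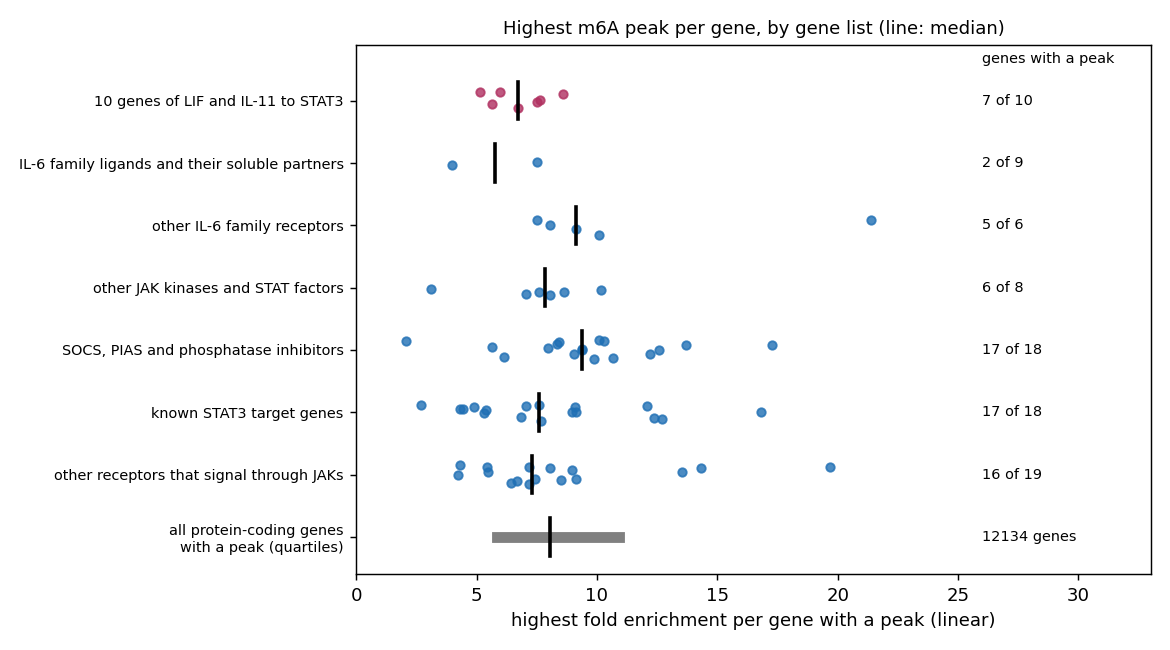
Highest fold enrichment per gene with a peak, for the 10 genes and 6 lists of related genes. Each point is 1 gene, black lines are medians, the grey bar holds the quartiles of all 12134 protein-coding genes with a peak, and the right column counts genes with a peak. The 7 points of the 10 genes lie between 5.15-fold and 8.58-fold, while other receptors and inhibitors reach 17-fold or more.

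Coverage at the summits was uneven among the 10 genes. Local background exceeded the whole-list median of 3.33 at 14 of the 19 summits, and it ranged from 0.704 in Il11 to 33.97 in Il6st. IP fragments ranged from 11 to 179, with a median of 34, beside a whole-list median of 29. In each of Lifr, Osmr, Jak1 and Socs3, the peak with the most IP fragments had a lower fold than the peak with the fewest, although the intervals of each pair overlapped. In Jak2, the peak with the fewest IP fragments, 12, was also the lowest in fold. The background reflects input fragments near the summit, and no other expression value was used here. Its part in the differences of fold was not tested.

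**Figure D4:**
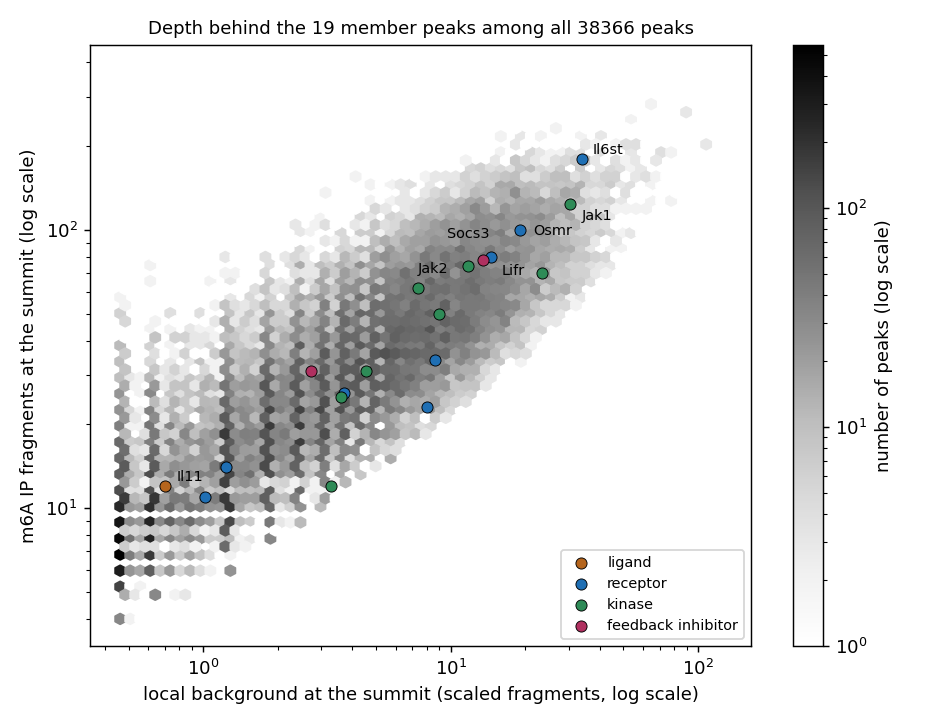
IP fragments plotted against local background, each at the summit, both on log scales, for the 19 peaks (coloured by role, with the gene named beside its peak with the most IP fragments) over all 38366 peaks (grey, darker for more peaks). Il6st, with 179 IP fragments, lies near the top of the list, and Il11, with 12, near its lower end.

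The best covered peak of a gene often lay near its 3′ end. In 5 of the 7 genes, namely Lifr, Osmr, Il6st, Jak1 and Jak2, the peak with the most IP fragments fell in the last 10% of the gene span. Among the 9694 peak-carrying protein-coding genes with a known strand, this share was 42.0%. In Socs3 that peak lay at 78.4% of the span from the 5′ end, and in Il11 at 48.8%. The measure depends on span, which is only 4.26 kb in Socs3 and 106.88 kb in Lifr. In bases, the Socs3 summit lay 917 before the 3′ end, nearer than in any of those 5 genes. Their distances ran from 1280 in Jak2 to 6217 in Lifr. Not all well covered peaks lay at 3′ ends: the second Jak1 peak, with 70 IP fragments, lay 25783 bases before the 3′ end, at 77.2% of the span. Exon positions were not used, so distances run over introns too, and positions relative to stop codons are not given.

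Of the 10 genes, 5 had a summit within 500 bases of a start that RefSeq lists, namely Il11, Lifr, Osmr, Jak1 and Socs3. Among 17492 protein-coding genes with a listed start, the share with such a summit was 14.2%. A peak overlapped the promoter window, 250 bases before to 50 after a listed start, in 3 of the 10 genes, where 13.5% of the same 17492 protein-coding genes had such an overlap. These were Lifr with 23 bases under the peak, Osmr with 166 and Jak1 with 117. Folds at these 3 peaks ran from 5.63 to 6.71, and fragments from 11 to 25. The short runs below, from RefSeq on build GRCm38.p6, are the window bases under each peak, or the 30 of them nearest to the summit, read 5′ to 3′ along the transcript strand. They are shown because the peaks cover them. The Jak1 and Lifr runs lie just after a listed start, and the Osmr run lies 250 to 221 bases before its listed start, inside the gene span. The capital marks the summit base, which lay inside the window only in Jak1.
Jak1, chr4:101265174-101265203, minus strand: cgccgcggggtccgcgccCagcctcgctcg
Lifr, chr15:7129599-7129621, plus strand: ggccgttatcgtcgcctggcgct
Osmr, chr15:6874534-6874563, minus strand: ggaccagcttttcctcccaggcctctccca

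The Jak1 promoter is shown at greater length because its peak crossed the outermost annotated start, at 101265282, by 8 bases. This was not particular to Jak1, since the first Osmr peak began 85 bases before the 5′ end of its span. The Jak1 run gives 191 bases before the outermost Jak1 start and 30 after it, and capitals mark the 38 bases under the peak.
Jak1 promoter, chr4:101265253-101265473, minus strand: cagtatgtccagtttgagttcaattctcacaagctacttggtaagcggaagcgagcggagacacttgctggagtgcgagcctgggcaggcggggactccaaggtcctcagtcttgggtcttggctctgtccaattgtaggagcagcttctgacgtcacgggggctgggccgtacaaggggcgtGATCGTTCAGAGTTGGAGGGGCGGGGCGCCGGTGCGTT
The letters GGACT, the most frequent core of the sequence that the m6A methyltransferase prefers, were searched in the 13 promoter windows of the 10 genes. They occurred on the transcript strand in 1 window, that of Jak1, where they lie outside the peak, and on either strand in 5. Over all 21263 windows of protein-coding genes these shares were 26.7% and 46.6%. None of the 3 short runs holds these letters. A match of letters is a description of the window and not a methylated site.

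The tissue label was compared with marker genes. All 6 genes listed for uterus and steroid receptors and all 6 for decidual stroma carried a peak. So did 5 of 7 for glandular epithelium, the source of LIF, 5 of 6 for luminal epithelium and 4 of 6 for leukocytes. Of 6 genes listed for liver, a tissue that should be absent, 3 had a peak. Over all protein-coding genes the share was 55.7%. The median highest fold of the liver genes with a peak was 6.66, beside 6.57 for decidual stroma and 3.94 for glandular epithelium. The part of other cell types in the results above was not tested.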

How the data were processed

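One peak list of whole mouse uterus was used. The submitters' processing notes name HISAT2 2.2.1, MACS3 3.0.0a7 and the build mm10. Settings, filters, duplicate handling and library depths were not given in the sources used here. Fold enrichment, as deposited, is a ratio of IP pileup to local background. The deposited −log10 values are those of the p-value and of the q-value at the summit; −log10 q started at 1.32. A further deposited column, a display score, was left aside. Positions are printed counted from 1.

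IP fragments k and background were solved from fold = (k + 1)/(background + 1) and the Poisson p-value, which fitted within 0.001 at 100% of peaks. In 1960 simulated peaks 100% were recovered. These were made without noise by the same formula, so they check the solving step only and not the deposited values. Fragments that are PCR copies count as if independent. Gene spans, strands and promoters came from RefSeq GRCm38.p6, after 365 genes outside assembled chromosomes were left out. All 10 members and 78 listed genes matched by symbol.

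The members and lists were chosen with earlier results of these data known. Named from each list were its 3 highest genes and those without a peak where these were at most 5; other names are marked, and a few genes under this rule are not reported here. No test between groups was possible with 1 library each. Alternatives were other thresholds, overlap rules, merging, single-gene summits, wider spans and other scores. Tools were Python 3.11.15, with scipy 1.17.1, numpy 2.4.6, matplotlib 3.10.9 and pandas 2.3.3.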

Additional observations from a re-analysis of the deposited data

How the results depend on the processing

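The 10 genes kept 7 with a peak when peaks needed a −log10 q of at least 5 or a fold of at least 4, when an overlap of 50% of the peak replaced the summit, when only summits in a single gene counted and when same intervals were merged. With any overlap of 1 base, or with spans widened by 1000 or 5000 bases, 8 had one, and Il11ra1 was the gene gained, through the peak shared with Ccl27a. Lif and Stat3 had no peak in any of these settings. Over all protein-coding genes the share with a peak was 53.1% at the −log10 q limit and 51.5% at 4-fold. That share was not computed for the other rules, so the 8 of 10 genes has no share beside it. The 19 peaks became 17 at the −log10 q limit, 14 at 4-fold and 20 with any overlap. Lost at the −log10 q limit were the third Osmr peak, at 3.17, and the first Jak2 peak, at 2.24. Each was the lower peak of the only pair in its gene whose intervals did not overlap. The median highest fold stayed at 6.71 except with any overlap, at 7.10. Ranking by −log10 q instead of fold moved all 7 genes: Il6st moved to rank 1 and Socs3 to rank 5. The median over a gene's peaks put Jak2 at 5.75-fold, outside the interval of its highest peak.

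In the list of other ligands, 1 gene had a peak at 4-fold or more and 0 with single-gene summits, against 2 by the summit rule. In the list of other family receptors, 3 had one with single-gene summits, against 5. The remaining list counts stayed within 1.5 times. The planned positions within transcripts and the search for the DRACH motif at summits were not run, since no exon positions were used here and the sequence used was limited to the promoter windows. No paired analysis was possible because each group holds 1 library. Depth limits the Il11 peak and the first peaks of Lifr, Jak2 and Osmr most, with 11 to 14 IP fragments each.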

Other observations

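Some peaks lay just outside the spans of the 10 genes, in no annotated gene. A peak 926 bases before the 5′ end of Jak2, at chromosome 19, 29250696 to 29251239, reached 12.97-fold (8.77 to 18.6) on 28 IP fragments and a background of 1.24. That is above the fold of each peak inside Jak2, although its interval overlapped that of the highest, at 7.49-fold (5.77 to 9.57). A peak 2290 bases after the 3′ end of Il6st, at chromosome 13, 112508975 to 112509182, reached 3.40-fold (2.59 to 4.39) on 57 IP fragments and a background of 16.1. Its interval lay below that of the Il6st peak, at 5.15-fold (4.43 to 5.96). The peak list carries no strand, so neither peak can be given to a transcript.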
